A study of Rattus norvegicus with 24 samples.

Results

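The comparison described here is that of fetal rat brain after Poly I:C with fetal rat brain after saline. It holds 12 of the 24 pups of the series, 6 from dams given Poly I:C and 6 from dams given saline, chosen by the maternal treatment in the sample labels. Poly I:C was injected into pregnant Sprague-Dawley rats at 7.5 mg/kg on gestational day 17, and the hippocampus and neocortex of the pups were dissected 18 hours later into 1 sample a pup, on embryonic day 18. The saline dams received an injection of saline on the same day, and the study's control diet held 20.3% protein. The other 12 pups, given MAM (methylazoxymethanol acetate, an agent that kills dividing cells) or a low protein diet through the dam, entered the fit only for their spread. Both groups drew their pups from 2 litters, 3 pups a litter, so the treated animals behind these values are 2 dams a group, and littermates share a dam and an injection. The pups of 1 treatment are called by the numbers in their names, in which 1.1 to 1.3 belong to litter 1 and 2.1 to 2.3 to litter 2. The tissue was a block of many cell types, so a lower level can come from fewer cells of a type or from less RNA per cell, which cannot be told apart here.

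Poly I:C is a synthetic double-stranded RNA that imitates a replicating virus. Cells sense it through the endosomal receptor Tlr3 and the cytoplasmic helicases Ifih1 and Ddx58, which lead through the kinase Tbk1 to the release of type I interferon and of cytokines such as interleukin 6. Interferon binds its receptor and, through a complex that contains Stat2 and Irf9, switches on a set of genes with antiviral, antigen-presenting and ubiquitin-like products. In pregnant rodents the substance acts first on the dam, and the fetal brain meets maternal cytokines, fever and placental changes as well as any Poly I:C that reaches it. The cortex on this embryonic day holds dividing radial glia and intermediate progenitors, young projection neurons, interneurons arriving from the ganglionic eminences and the first microglia.

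Of the 17420 genes in the deposited table, 9811 had a mean normalised value of at least 0.1 in both groups and were compared. Mfsd6l, at 0.100067 in its lower group, lay just inside this limit and Elf1, at 0.0999734, just outside it. The values are TPM (the share of transcripts that a gene makes up, corrected for its length) as the authors scaled them, relative to gene length and to the same total in every pup. Estimated reads ran from 28.2 to 40.6 M (megareads) in the Poly I:C pups and from 26.5 to 57.0 M in the saline pups. Neurod2, a transcription factor of young cortical neurons, lay between 50.8 and 114 in the 12 pups and Tbr1, of young deep-layer neurons, between 12.1 and 16.9, as the labelled tissue should hold them, while Emx1 and Eomes were not analysed here. Poly I:C 1.3, Saline 2.1 and Poly I:C 1.1 lay farthest from the means of their groups over all genes, with SDs of 0.40, 0.33 and 0.33 on the log2 scale against 0.21 to 0.29 in the other 9 pups. Eif2s3y, a Y-linked gene, was above 1 in 2 of the 6 pups of each group.

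Few genes moved far. At an unadjusted limma p under 0.05, 964 of 9811 genes were called, which is 9.83% of the genes tested, with 425 higher and 539 lower in Poly I:C pups (4.33% and 5.49%). No gene passed an adjusted p of 0.05, and the lowest adjusted p of limma with Benjamini-Hochberg adjustment was 0.0771. A call in the text below means the unadjusted threshold unless an adjusted p is given. The median size of the called differences was 0.24 on the log2 scale, and 30 of the 964 reached 0.6, the fold limit that the study set for this model beside its p, which came from another test. In 960 of the 964, the mean log2 values of both Poly I:C litters lay on the same side of the saline mean, as the call itself favours. The 6 Poly I:C values and the 6 saline values did not overlap for 44 genes (0.448% of those tested), 16 higher and 28 lower.

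Of the 16 higher genes without overlap, 8 are described here. Ints13, a subunit of the Integrator complex that cuts small nuclear RNAs and ends stalled transcription, lay between 0.908 and 1.07 in Poly I:C pups (median 0.993) and between 0.626 and 0.872 in saline pups (median 0.744). Its log2 difference was 0.40 ± 0.07 (SE, n = 6 and 6, limma adjusted p = 0.0771), at 0.37 in litter 1 and 0.43 in litter 2. Every treated pup was above every control pup, and so it was for Adat1, which edits adenosine in transfer RNA, with 0.184 to 0.260 (median 0.217) against 0.124 to 0.174 (median 0.160). Adat1 differed by 0.48 ± 0.09 and Trmt1l, a tRNA methyltransferase homologue, by 0.29 ± 0.06, both with a limma adjusted p of 0.0771. Elavl1, the HuR protein that steadies mRNAs with AU-rich elements, stood at 0.664 to 0.698 (median 0.673) in Poly I:C pups and 0.517 to 0.588 (median 0.562) in saline pups, a difference of 0.28 ± 0.06. Tra2a, a splicing regulator, differed by 0.26 ± 0.06, and Rexo2, an exonuclease of short RNAs in mitochondria, by 0.28 ± 0.07. Tmem129, a ubiquitin ligase of the endoplasmic reticulum, differed by 0.29 ± 0.07, and Chtf8, which helps load the PCNA clamp, by 0.19 ± 0.05.

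The lower genes without overlap were of other kinds. Aldh1b1, a mitochondrial aldehyde dehydrogenase, lay between 2.72 and 3.12 in Poly I:C pups (median 3.00) and between 3.28 and 3.84 in saline pups (median 3.67), and its log2 difference of −0.30 ± 0.06 (limma adjusted p = 0.0771) was −0.28 in litter 1 and −0.31 in litter 2. The aldehyde dehydrogenases of the table did not move as one. Of 13 tested, Aldh1b1, Aldh1l2 (−0.27) and Aldh1l1 (−0.57), a marker of astrocytes and radial glia, were called lower, beside 5.49% of all genes. Called higher were Aldh9a1 (0.20) and Aldh18a1 (0.14), beside 4.33%. The median of the 13 was −0.05, with −0.02 in litter 1 and −0.002 in litter 2. Krt2, a keratin better known from skin, had the largest fold of the lower genes without overlap described here. It lay between 0.0894 and 0.158 (median 0.128) against 0.172 to 0.306 (median 0.249). Its difference was −0.99 ± 0.20, at −0.64 in litter 1 and −1.34 in litter 2. Tmem79, a membrane protein also known from skin, differed by −0.63 ± 0.12, and both rest on few reads, with an estimated 28 and 33 in the lowest pup. Tcea2, a transcription elongation factor, differed by −0.31 ± 0.06 and C1qtnf1, a secreted relative of complement C1q, by −0.50 ± 0.11.

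Several of the lower genes encode receptors and their partners in neurons. Chrm1, the muscarinic receptor that couples to phospholipase C, lay between 2.31 and 3.78 (median 3.20) against 3.93 to 5.30 (median 4.35), a difference of −0.53 ± 0.13. Adora1, the inhibitory adenosine receptor, stood at 0.139 to 0.183 (median 0.153) against 0.190 to 0.233 (median 0.219) and differed by −0.45 ± 0.11. Adra2c, an α2 adrenoceptor, lay between 1.06 and 1.43 (median 1.26) against 1.53 to 2.10 (median 1.74), and its difference was −0.52 ± 0.13. All 3 receptors were lower in both litters, by 0.42 to 0.46 on the log2 scale in litter 1 and by 0.46 to 0.62 in litter 2. Nsmf, which carries signals from NMDA receptors to the nucleus, differed by −0.18 ± 0.05, Ctsf, a lysosomal protease, by −0.21 ± 0.05, Fbxw9, an F-box protein, by −0.28 ± 0.07 and Fam163b by −0.44 ± 0.10. These genes were chosen from 9811 because their pups did not overlap and both litter means lay on the same side of the saline mean. The lack of overlap and the shared direction of the litters are therefore a description and no test of them.

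**Figure D1:**
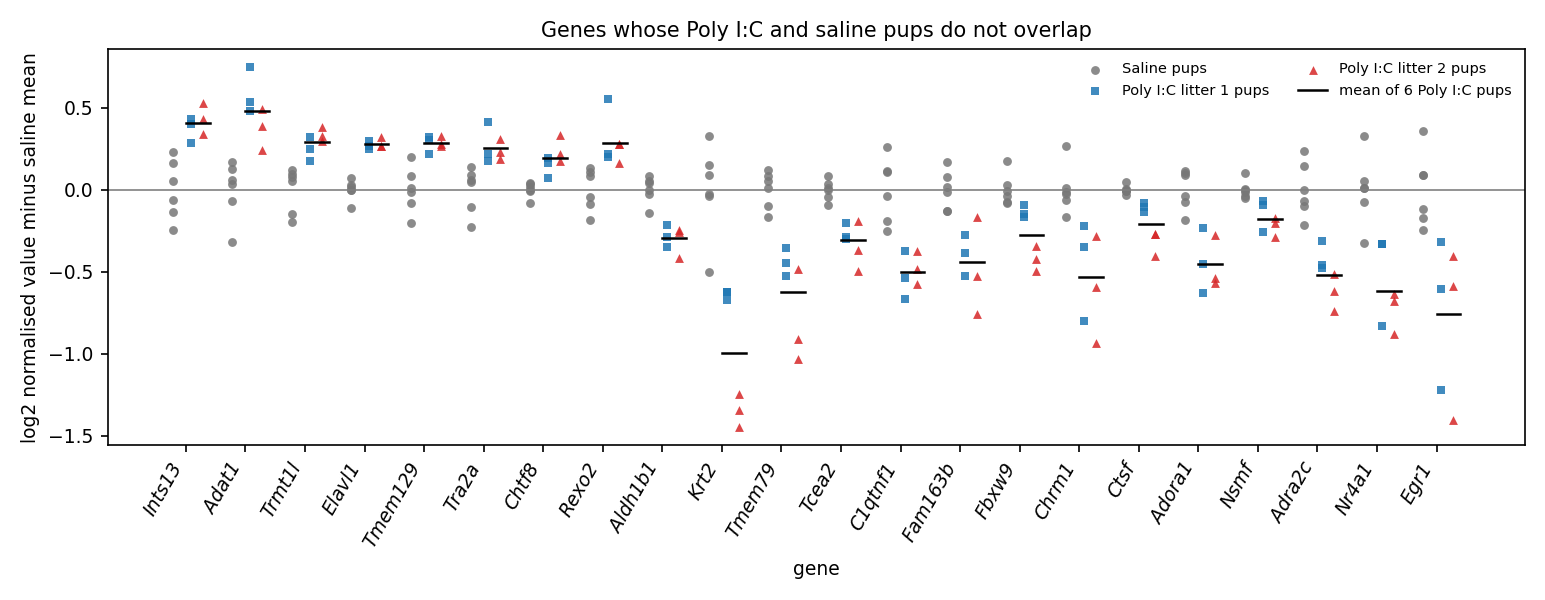
Each point is the log2 normalised value of 1 pup minus the mean of the 6 saline pups (y axis), for 22 genes on the x axis, with saline pups in grey, Poly I:C litter 1 in blue and litter 2 in red, and the mean of the 6 Poly I:C pups as a black line. For 8 genes the coloured points all lie above the grey ones and for 14 they all lie below. The red points all lie under the blue ones for Krt2, Fbxw9, Ctsf and Adra2c.

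The other models were near the saline level for some of these genes and near the Poly I:C level for others. Ints13 averaged 0.986 ± 0.057 in Poly I:C, 0.749 ± 0.094 in saline, 0.721 ± 0.045 in MAM and 0.849 ± 0.057 in Low Protein pups (SD, n = 6 each). Krt2 averaged 0.126 ± 0.033 in Poly I:C against 0.236 to 0.247 in the other 3 groups. Aldh1b1 averaged 2.96 ± 0.15 in Poly I:C, 3.20 ± 0.09 in MAM, 3.20 ± 0.31 in Low Protein and 3.63 ± 0.20 in saline pups, so both other models also lay under the saline mean. Adora1 averaged 0.159 ± 0.018 in Poly I:C and 0.156 ± 0.032 in Low Protein against 0.216 ± 0.018 in saline pups, and Tmem79 0.204 ± 0.037 in Poly I:C and 0.229 ± 0.039 in MAM against 0.311 ± 0.023. Chrm1 averaged 3.11 ± 0.61 in Poly I:C, 3.56 ± 0.72 in Low Protein and 4.43 ± 0.46 in saline pups, and C1qtnf1 0.126 ± 0.010, 0.143 ± 0.027 and 0.179 ± 0.024. These differences between models were not tested.

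The interferon response was weak in level and uneven between pups. Of 50 listed interferon-stimulated genes, 43 were in the table and 21 reached the limit of 0.1, and of these 4 were called higher (Bst2, Irf9 and Irf7 among them) and none lower, against 4.33% of all genes called higher. The median difference of the 21 was 0.12 on the log2 scale, against 0.01 over all genes tested, with 0.05 in litter 1 and 0.32 in litter 2. Without Poly I:C 1.3 the number of members called higher was 8, with the saline pups against litter 2 alone it was 9 (beside 6.27% of all genes), without Poly I:C litter 2 it was 2 with 1 lower, and with a mean above 1 it was 1. A member that is low in saline passes the limit only with a mean of 0.1 there too, so an interferon-stimulated gene that is silent in controls is not among the 21.

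Bst2, or tetherin, which holds budding virus at the cell surface, was the clearest. Its values were 0.520, 1.22 and 0.402 in Poly I:C litter 1 and 1.04, 0.929 and 0.899 in litter 2, against 0.320 to 0.583 in saline pups (median 0.380). All pups of litter 2 and pup 1.2 stood above every control, and pups 1.1 and 1.3 did not. The log2 difference was 0.97 ± 0.23 (unadjusted limma p = 0.000339, adjusted p = 0.187, exact permutation p = 0.013), at 0.68 in litter 1 and 1.27 in litter 2. Irf7, the transcription factor that amplifies interferon production, followed the same pups, with 0.168, 0.402 and 0.108 in litter 1, 0.296, 0.321 and 0.225 in litter 2 and 0.0883 to 0.206 in saline pups (median 0.113). Its difference was 0.92 ± 0.35 (limma adjusted p = 0.374) and its lowest pup held an estimated 10 reads. Irf9, the DNA-binding part of the complex that interferon activates, was steadier, at 1.59 to 1.78 (median 1.68) against 1.07 to 1.71 (median 1.43), with a difference of 0.29 ± 0.09. The calls of Bst2 and Irf9 were lost in none of the 28 and 29 alternatives in sample set, scaling or filter that gave them a value.

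Other members of the pathway did not reach the threshold. Isg15, a ubiquitin-like protein, stood at 0.878 to 1.46 (median 1.27) in Poly I:C pups and 0.814 to 1.35 (median 0.861) in saline pups, with a difference of 0.33 ± 0.17. Ifi27 was above every control in 4 pups, again litter 2 and 1.2, and differed by 0.34 ± 0.17, with 0.06 in litter 1 and 0.63 in litter 2. Ifit2, which blocks translation of viral RNA, differed by −0.02 ± 0.17. Ifit3, Mx1 and Cxcl10, 3 products of strong interferon responses, lay under the limit of the test, with mean values of 0.0200, 0.0146 and 0.0722 in Poly I:C pups and 0.0106, 0.00734 and 0.0477 in saline pups. The highest value of Mx1, 0.0376, was in litter 1 and that of Ifit3, 0.0337, in litter 2.

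Genes of class I antigen presentation, which interferon also drives, were called higher for 4 of 19 and lower for 1, against 4.33% and 5.49% of all genes, with a median of 0.10 (0.07 in litter 1 and 0.19 in litter 2). Psmb8 and Psmb9 are subunits of the immunoproteasome, which cuts the peptides that class I molecules show. Psmb8 lay between 0.299 and 0.551 (median 0.375) against 0.213 to 0.310 (median 0.230), with 5 pups above every control and a difference of 0.68 ± 0.29. Psmb9 stood at 0.200 to 0.339 (median 0.238) against 0.147 to 0.229 (median 0.187) and differed by 0.44 ± 0.13. The class I heavy chain genes went both ways, with RT1-S3 at 0.46 ± 0.18 and RT1-CE4 at 0.76 ± 0.35 higher and RT1-A1 at −0.52 ± 0.19 lower. These genes are near copies of each other, so reads may have been divided among them in ways the table does not show. B2m, the light chain of them all, lay between 7.49 and 9.57 (median 8.52) against 7.18 to 8.84 (median 7.78), a difference of 0.10 ± 0.11 that was not called. Without Poly I:C 1.3 the class I list had 8 members called higher, without 1.2 it had 2, without 2.1 it had 1 and without Saline 1.2 it had 1. The calls of Psmb8 and RT1-CE4 were lost in 8 and 12 of their alternatives, that of Psmb9 in none.

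The promoters of 3 genes of these groups are shown because the letters by which interferon-activated factors are known to bind can be read in them. They come from RefSeq (GRCr8), run from 250 bases before to 50 bases after the start of the gene, and capitals mark the interferon-stimulated response element, searched as GAAANNGAAA on both strands.
Bst2, chr16:18254918-18255217, minus strand: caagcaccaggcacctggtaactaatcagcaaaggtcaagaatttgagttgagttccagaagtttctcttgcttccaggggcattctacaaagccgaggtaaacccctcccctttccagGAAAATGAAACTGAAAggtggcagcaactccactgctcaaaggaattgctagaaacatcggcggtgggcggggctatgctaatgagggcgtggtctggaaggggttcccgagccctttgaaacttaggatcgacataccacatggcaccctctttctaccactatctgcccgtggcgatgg
Irf7, chr1:205799974-205800273, minus strand: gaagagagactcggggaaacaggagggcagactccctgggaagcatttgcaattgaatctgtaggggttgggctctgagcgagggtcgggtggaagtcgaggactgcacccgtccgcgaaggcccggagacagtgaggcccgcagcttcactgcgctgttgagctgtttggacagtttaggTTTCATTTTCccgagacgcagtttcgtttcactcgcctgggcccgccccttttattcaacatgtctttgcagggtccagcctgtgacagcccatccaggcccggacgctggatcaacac
Psmb8, chr20:4656982-4657281, minus strand: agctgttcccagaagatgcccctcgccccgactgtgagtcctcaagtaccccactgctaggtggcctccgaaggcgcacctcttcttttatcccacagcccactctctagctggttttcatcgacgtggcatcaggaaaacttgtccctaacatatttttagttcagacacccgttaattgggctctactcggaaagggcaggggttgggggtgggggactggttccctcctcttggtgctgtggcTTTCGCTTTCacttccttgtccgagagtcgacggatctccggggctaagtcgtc
The element was in 10 of the 17 interferon-stimulated promoters in the RefSeq table (58.8%) and in 7 of the 17 class I promoters (41.2%), against 3.92% of all 33469 promoters. In Bst2 a pair of matches overlap. Irf9, Psmb9 and RT1-CE4, all called higher, had no match in these windows, while Isg15 was not in the RefSeq table. B2m, which was not called, held the element. A match describes the letters in this window and is no measurement of binding.

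**Figure D2:**
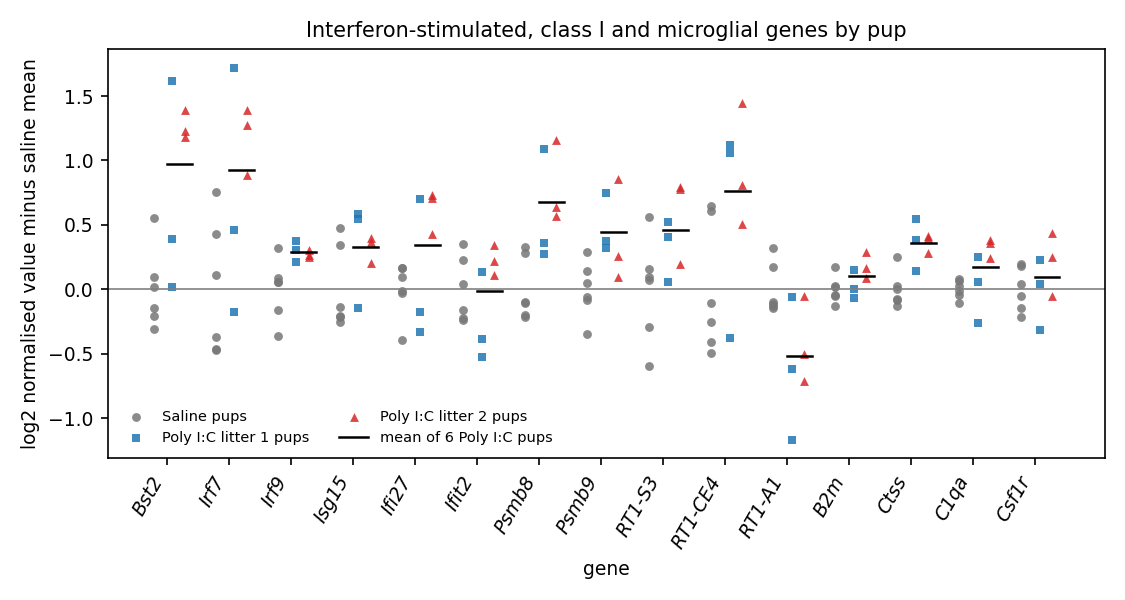
Points show the log2 normalised value of each pup minus the saline mean (y axis) for 15 interferon-stimulated, class I and microglial genes (x axis), with saline pups in grey, Poly I:C litter 1 in blue, litter 2 in red and the mean of 6 Poly I:C pups as a black line. The 3 blue points of Bst2, Irf7 and Ifi27 are spread widely, from the range of the grey points to about or above the red ones, while the 3 red points lie together above the saline mean.

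Sensors of double-stranded RNA and cytokine receptors showed little. Of 10 tested sensors and adaptors 1 was called higher, Tbk1, at 0.573 to 0.714 (median 0.665) against 0.477 to 0.656. The 3 pups above every control were those of litter 1, at 0.685 to 0.714, while litter 2 lay at 0.573 to 0.645. The Tbk1 difference of 0.18 ± 0.08 was 0.28 in litter 1 and 0.09 in litter 2, and its call was lost in 11 alternatives. Eif2ak2, the kinase PKR that halts translation on double-stranded RNA, differed by 0.21 ± 0.16. Tlr3, Ifih1 and Ddx58 lay under the limit of the test, with means of 0.0715, 0.0277 and 0.0377 in Poly I:C pups and 0.0627, 0.0228 and 0.0283 in saline pups. Among 11 receptors of interferon and cytokines, Ifngr2, a chain of the interferon gamma receptor, was lower at −0.22 ± 0.07, and none was called higher. Interleukin 6 signals through a receptor chain shared by its family and through Stat3. Il6st, the receptor chain gp130, differed by 0.02 ± 0.11, Stat3 by −0.10 ± 0.08 and Socs3, its feedback inhibitor, by 0.01 ± 0.13. Of 18 targets of STAT3 and NF-kB, 3 were called lower and none higher. They were the acute phase protein Lcn2 (−0.62 ± 0.23), Socs2 (−0.28 ± 0.11) and the transcription factor Cebpb (−0.40 ± 0.18). Counts in this paragraph stand beside 4.33% of all genes called higher and 5.49% lower. The median of the 18 was −0.11 in litter 1, where 4 were called lower, beside 2.01% of all genes. In litter 2 it was 0.01, and none was called. The score of Poly I:C 1.3, the mean log2 value of the 18 minus the saline mean, was −0.46. The other Poly I:C pups scored −0.12 to 0.09 and the saline pups −0.11 to 0.10. The calls of Socs2 and Cebpb were lost in 9 and 11 alternatives.

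Microglia, the macrophages of the brain, were measured through 16 genes. Of these 1 was called higher and none lower, which is near the 4.33% of all genes called higher. That gene was Ctss, a lysosomal protease of antigen-presenting cells, at 0.255 to 0.338 (median 0.304) against 0.212 to 0.275 (median 0.226), with 5 pups above every control and 0.36 in each litter (0.36 ± 0.10 over both). The receptor Csf1r, on which microglia depend, differed by 0.10 ± 0.17, the complement gene C1qa by 0.17 ± 0.17, Aif1 by 0.17 ± 0.14 and the fractalkine receptor Cx3cr1 by −0.05 ± 0.13. The median of the 16 was −0.02 in litter 1, where 1 was called higher, and 0.28 in litter 2, where 2 were. These counts stand beside 2.88% and 6.27% of all genes. Summed over the 19 genes in the table, the level ran from 15.7 to 20.1 in Poly I:C litter 1, from 21.2 to 23.0 in litter 2 and from 15.9 to 19.9 in saline pups. No gene of the list was at the offset in any of these pups. The count was 2 without Poly I:C 1.3, Saline 1.3 or Saline 2.2. The part of microglial number or state in the higher Ctss was not tested.

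Part of the immediate early genes was lower. These genes encode transcription factors and regulators that neurons switch on within minutes of activity or growth factor signals, without new protein. Of 18 tested, 6 were called lower (Nr4a1, Egr1, Egr3, Dusp1, Jund and Nab2) and none higher, against 5.49% of all genes called lower. The median was −0.09, with −0.12 in litter 1 and −0.08 in litter 2. Against litter 1 alone 5 were called lower, beside 2.01% of all genes. Against litter 2 alone 6 were called lower and 2 higher, beside 11.8% and 6.27%. Without Poly I:C 1.3, 1 member was called higher. The scores of Poly I:C 1.1 and 1.2 (−0.05 and −0.06) lay inside the saline range of −0.07 to 0.10, and that of 1.3 was −0.42. Egr1 lay between 0.640 and 1.36 in Poly I:C pups (median 1.12) and between 1.43 and 2.17 in saline pups (median 1.68). No treated pup reached the lowest control, and the difference was −0.76 ± 0.21 (limma adjusted p = 0.273), at −0.71 in litter 1 and −0.80 in litter 2. Nr4a1, an orphan nuclear receptor, stood at 0.195 to 0.286 (median 0.228) against 0.287 to 0.452 (median 0.362), again without overlap but with a gap far smaller than the spread, and differed by −0.61 ± 0.17. Egr3 was below every control in 5 pups and differed by −0.67 ± 0.19.

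The remaining members of this list differed by less. Dusp1, a phosphatase of MAP kinases, lay between 10.2 and 11.1 (median 10.4) against 11.1 to 12.4 (median 11.5), a difference of −0.13 ± 0.05. Jund, a subunit of AP-1, differed by −0.20 ± 0.08 and Nab2, a corepressor of the Egr proteins, by −0.16 ± 0.07, calls that were lost in 9 and 8 alternatives. Arc, of active synapses, differed by −0.27 ± 0.15 and Fos by 0.01 ± 0.20, neither called. Summed over the 23 genes, which mixes high and low genes, the level ran from 166 to 236 in Poly I:C and from 197 to 224 in saline pups and overlapped. Dusp1, already counted above, and Sgk1 (−0.21) are both also induced by glucocorticoids. They were the 2 called among 10 glucocorticoid response genes, both lower, beside 5.49% of all genes called lower. The median of the 10 was 0.01, with 0.03 in litter 1 and −0.04 in litter 2.

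Hypoxia-induced genes had 5 of 23 members called lower and none higher, against 5.49% of all genes called lower, with a median of −0.05. They were Pfkfb4, a regulator of glycolysis, at 0.200 to 0.324 (median 0.254) against 0.288 to 0.357 (median 0.340) and −0.34 ± 0.09, Ldha at −0.19 ± 0.07, Car9 at −0.46 ± 0.20, Hk1 at −0.18 and Bnip3 at −0.24. Ldha, lactate dehydrogenase A, was below every control in 4 pups. In litter 1 the median was −0.03, with 2 called lower and 1 higher, beside 2.01% and 2.88% of all genes. In litter 2 it was −0.08, with 5 called lower, beside 11.8%. Scores ran from −0.23 to 0.12 in Poly I:C pups and from −0.11 to 0.10 in saline pups. The number called lower fell to 1 without Saline litter 1 and to 2 without Poly I:C litter 2 or Saline 1.1. It was 3 on litter means, with the 12 pups alone, with a mean above 1 and without Saline litter 2. Leaving out Poly I:C 1.3, 2.2 or 2.3 or Saline 1.2 or 2.2 also gave 3.

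Part of the chaperones of the endoplasmic reticulum was higher. They fold secreted and membrane proteins, and the unfolded protein response raises them through ATF6 and XBP1. Of 20 tested, 8 were called higher and none lower, against 4.33% of all genes, and all 20 differences were above 0, with a median of 0.12 (0.10 in litter 1 and 0.16 in litter 2). The summed level of the 20 genes, in which the genes of high level weigh most, ran from 227 to 257 in Poly I:C pups. In saline pups it ran from 199 to 225, without overlap. The mean log2 score, in which each gene weighs alike, did overlap, at 0.07 to 0.21 in Poly I:C and −0.13 to 0.09 in saline pups. Hspa5, or BiP, the master chaperone of this compartment, was 44.3, 42.2 and 43.0 in litter 1 and 53.6, 46.2 and 56.9 in litter 2, against 34.8 to 44.3 in saline pups (median 40.2). Its difference was 0.26 ± 0.08 (limma adjusted p = 0.3), with 0.12 in litter 1 and 0.39 in litter 2, and against litter 2 alone it had an adjusted p of 0.0193.

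The other called members were of the same machinery. Pdia4, a disulphide isomerase, stood at 3.03 to 4.01 (median 3.54) against 2.33 to 3.35 (median 2.88) and differed by 0.28 ± 0.08. Hsp90b1, the GRP94 chaperone, lay between 16.1 and 18.0 (median 16.8) against 11.6 to 17.5 (median 14.9), a difference of 0.23 ± 0.08. Sdf2l1 (0.30 ± 0.12), Creld2 (0.18 ± 0.07), the lectin Calr (0.14 ± 0.06), Hyou1 (0.13 ± 0.06) and Pdia6 (0.13 ± 0.06) made up the 8. Ddit3, the transcription factor CHOP of prolonged stress, was higher at 1.22 to 1.43 (median 1.33) against 0.902 to 1.37 (median 1.03), a difference of 0.31 ± 0.09 that was 0.30 in litter 1 and 0.33 in litter 2. Of the 24 genes of the wider ATF4 stress list, 4 were called higher, Ddit3, Mthfd2 (0.17), Psat1 (0.23) and Aldh18a1 (0.14), and Aldh1l2 was lower. These counts stand beside 4.33% of all genes called higher and 5.49% lower. The median of the 24 was 0.01 in litter 1, where 1 was called higher, beside 2.88% of all genes. In litter 2 it was 0.15, where 7 were called higher and 1 lower, beside 6.27% and 11.8%. The chaperone count was 4 on litter means, 3 without Poly I:C 2.3 and 5 without Saline 2.3, and against litter 1 alone no member was called. The calls of Calr, Hyou1 and Pdia6 were lost in 9, 9 and 13 alternatives.

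Promoters of 3 chaperone genes are shown because the endoplasmic reticulum stress element, the site that ATF6 with NF-Y is known to read, stands in them. Sequence source and window are as above, and capitals mark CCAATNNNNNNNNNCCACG on either strand.
Hspa5, chr3:38452766-38453065, plus strand: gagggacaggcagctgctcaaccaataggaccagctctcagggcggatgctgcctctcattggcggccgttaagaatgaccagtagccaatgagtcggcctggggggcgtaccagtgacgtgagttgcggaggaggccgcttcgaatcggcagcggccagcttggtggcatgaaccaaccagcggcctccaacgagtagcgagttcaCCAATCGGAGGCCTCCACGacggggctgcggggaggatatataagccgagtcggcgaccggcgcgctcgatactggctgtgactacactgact
Hsp90b1, chr7:23012244-23012543, minus strand: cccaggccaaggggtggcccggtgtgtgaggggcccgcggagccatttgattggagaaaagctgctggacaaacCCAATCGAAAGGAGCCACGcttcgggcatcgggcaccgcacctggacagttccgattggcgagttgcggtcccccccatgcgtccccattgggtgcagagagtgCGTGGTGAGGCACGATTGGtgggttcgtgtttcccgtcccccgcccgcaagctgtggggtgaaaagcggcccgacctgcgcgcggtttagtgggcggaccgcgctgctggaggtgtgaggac
Creld2, chr7:121789134-121789433, plus strand: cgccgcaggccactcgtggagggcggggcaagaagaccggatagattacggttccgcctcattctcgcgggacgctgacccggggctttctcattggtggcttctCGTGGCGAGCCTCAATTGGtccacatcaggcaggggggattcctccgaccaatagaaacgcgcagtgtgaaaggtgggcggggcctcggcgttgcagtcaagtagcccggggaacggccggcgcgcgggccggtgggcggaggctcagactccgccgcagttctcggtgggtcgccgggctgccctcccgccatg
Of the 17 chaperone promoters in the RefSeq table, 7 held the element (41.2%), against 22 of 33469 promoters in all (0.0657%). Hsp90b1 held 2 copies in opposite directions. Calr, also called higher, held it, as did Canx, Dnajc3 and Xbp1, which were not called, while Pdia4, Sdf2l1 and Hyou1 had no match and Pdia6 was not in the table.

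**Figure D3:**
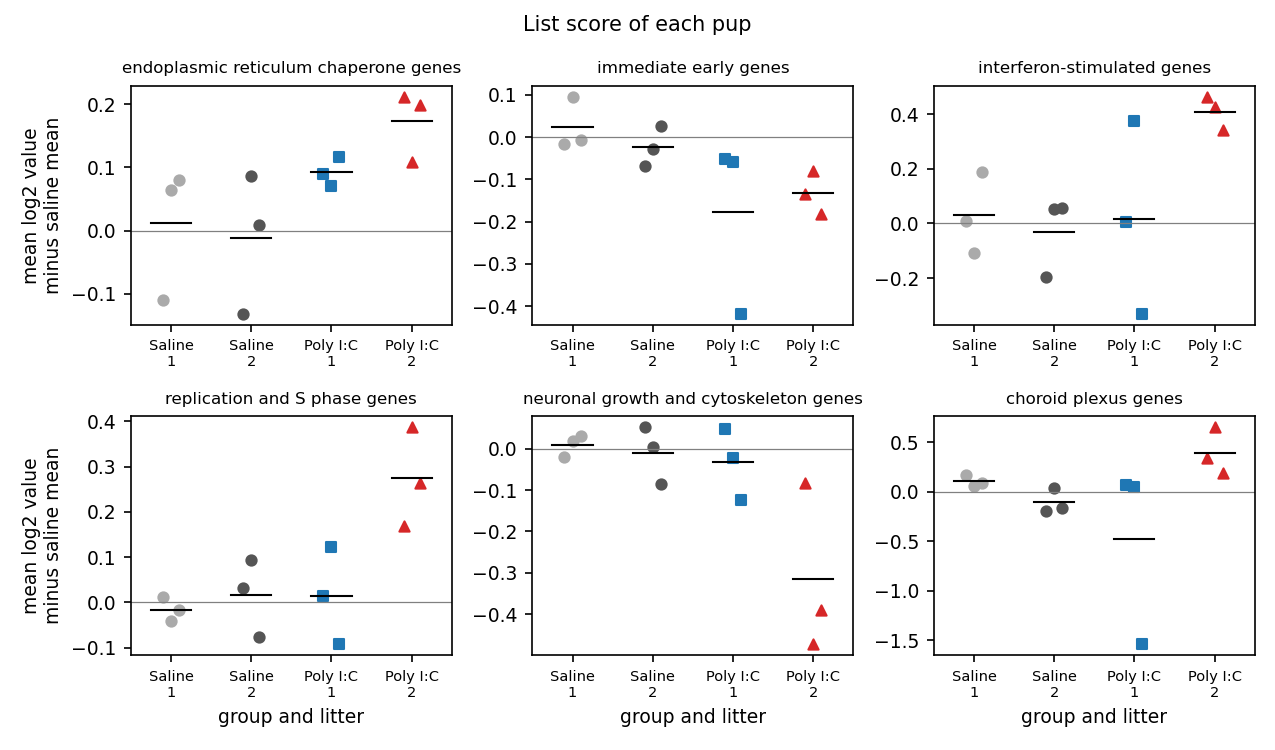
Each panel shows 1 gene list, and each point is the mean log2 value of 1 pup over the genes of the list minus the mean of the 6 saline pups (y axis), by group and litter (x axis), with a black line at the mean of 3 littermates. Chaperone scores lie at 0.07 to 0.12 in Poly I:C litter 1 and 0.11 to 0.21 in litter 2 against −0.13 to 0.09 in saline pups. Immediate early scores lie between −0.42 and −0.05 in Poly I:C pups and between −0.07 and 0.10 in saline pups. Replication and neuronal growth scores leave the saline range mainly in litter 2.

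Part of the genes of dividing cells was higher. Of 31 replication and S phase genes, 8 were called higher and none lower, against 4.33% of all genes called higher, with a median of 0.15, which was 0.01 in litter 1 and 0.28 in litter 2. Mcm4, of the replicative helicase, lay between 3.06 and 3.26 in litter 1 and 3.63 and 4.14 in litter 2, against 2.33 to 3.26 in saline pups (median 2.77), and differed by 0.32 ± 0.09. Pcna, the sliding clamp, was 18.5 to 22.9 in litter 1, 23.1 to 26.1 in litter 2 and 17.7 to 20.7 in saline pups (median 18.5), a difference of 0.24 ± 0.10. Of 26 genes of G2 and mitosis, 4 were called higher, among them the spindle checkpoint kinase Bub1 (0.42 ± 0.19). Against litter 2 alone, 17 of the 31 and 19 of the 26 were called higher, beside 6.27% of all genes, and against litter 1 alone none was. On litter means, the unit of the dams, 2 of the replication genes and 1 of the mitosis genes were called. The replication count was 1 without Poly I:C 2.2, 3 without 2.3, 4 without 2.1 or without Saline 2.3, and 5 without 1.2. The mitosis count was 11 without Poly I:C 1.3, 1 without 2.2 or 2.3 and 2 without Saline 1.1 or 2.1.

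Progenitor genes were called higher for 2 of 12 intermediate progenitor and 3 of 23 radial glia members, against 4.33% of all genes. The intermediate progenitor median was 0.04 in litter 1, where none was called. In litter 2 it was 0.35, and 7 of the 12 were called higher, beside 6.27% of all genes. The summed level of 23 radial glia genes ran from 238 to 245 in litter 1, from 233 to 239 in litter 2 and from 208 to 242 in saline pups. Pax6, the transcription factor of radial glia, lay between 0.986 and 1.27 in litter 1, between 1.30 and 1.56 in litter 2 and between 0.840 and 1.28 in saline pups (median 1.06), a difference of 0.28 ± 0.11. Lhx2, which keeps cortical progenitors dividing, differed by 0.28 ± 0.11, with its lowest control, Saline 2.1, far under the others. Neurog1, a proneural factor of cortical progenitors, was 1.94, 1.87 and 1.25 in litter 1 and 2.19, 2.95 and 3.09 in litter 2, against 0.803 to 1.92 in saline pups (median 1.27). Its difference of 0.71 ± 0.24 was 0.36 in litter 1 and 1.07 in litter 2. Of the 12 intermediate progenitor genes tested, Neurog1 and Mfap4 (0.28) were called higher, and of 23 radial glia genes, Pax6, Lhx2 and Hes1 (0.23).

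Among 31 genes of neuronal growth and the cytoskeleton, 11 were called lower and none higher, against 5.49% of all genes called lower, with a median of −0.16, which was −0.03 in litter 1 and −0.30 in litter 2. Camk2a, a kinase of maturing excitatory synapses, was 0.199, 0.169 and 0.135 in litter 1 and 0.183, 0.0661 and 0.125 in litter 2, against 0.183 to 0.256 in saline pups (median 0.201). Its difference was −0.58 ± 0.18, with 5 pups below every control. Thy1, a surface protein of neurons, lay between 2.59 and 4.06 (median 3.63) against 3.92 to 4.69 (median 4.20) and differed by −0.28 ± 0.09. Of 23 synaptic vesicle genes, 7 were called lower and none higher, with a median of −0.17 (−0.07 in litter 1 and −0.28 in litter 2). Syn2, a synapsin that tethers vesicles, stood at 0.0603 to 0.137 (median 0.120) against 0.135 to 0.161 (median 0.148) and differed by −0.44 ± 0.15, and Cplx2, a complexin, by −0.40 ± 0.17. Of 17 potassium channel genes 4 were lower, among them Kcnf1 (−0.41 ± 0.17). The median of the 17 was −0.19, with 0.03 in litter 1, where none was called. In litter 2 it was −0.30, and 8 were called lower, beside 11.8% of all genes. Without Poly I:C 2.2 or without 2.3 the neuronal growth list had 7 members called and the vesicle list 4, and the vesicle list had 13 without Poly I:C 1.1 and 4 without Saline 1.2. On litter means, 4 genes of the neuronal growth list and 4 of the vesicle list were called lower. The vesicle and potassium channel counts are read against the same 5.49%. The call of Cplx2 was lost in 9 of its alternatives.

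Markers of interneurons were lower for a few members. Those born in the medial ganglionic eminence (MGE) carry Lhx6 and later Sst. Of 16 genes of this list 3 were called lower and none higher, against 5.49% of all genes called lower, with a median of −0.14. It was −0.04 in litter 1, where none was called, and −0.22 in litter 2, where 5 were lower, beside 11.8% of all genes. The count was 1 without Poly I:C litter 2, without Saline litter 2 or with a mean above 1. Saline 2.1 had the highest score for this list, 0.35, and for striatal projection neuron genes, 0.72. The part of other tissue in this was not tested. Sst, the peptide somatostatin, was 44.5, 48.4 and 56.6 in litter 1 and 53.1, 17.7 and 46.9 in litter 2, against a median of 64.7 and a highest value of 94.6 in saline pups, whose lowest, 2.2, lay just under Poly I:C 2.1. In 4 pups it was below every control, most of all in Poly I:C 2.2, and the difference was −0.65 ± 0.20. The peptide Npy differed by −0.41 ± 0.17 and Elfn1, a synaptic adhesion protein of Sst neurons, by −0.48 ± 0.17. The transcription factor Lhx6 differed by −0.23 ± 0.15, which was 0.04 in litter 1 and −0.49 in litter 2, and Dlx1, Dlx5 and Nkx2-1, which direct interneuron fate, by −0.13, −0.14 and −0.05, none of them called. Of 12 genes of interneurons from the caudal eminence (CGE), Htr3a (−0.37 ± 0.12) and Cck (−0.27 ± 0.10) were lower, beside the same 5.49%. The 13 genes of GABA synthesis, transport and reception had a median of −0.23, with 0.06 in litter 1 and −0.48 in litter 2, where 10 were called lower, beside 11.8% of all genes. Over both litters 2 of the 13 were called lower and in litter 1 none, and the count was 0 without Poly I:C 2.2 or 2.3 and on litter means, 5 without 1.1, 4 without 1.3 and 1 without Saline 1.3. Gad1, which makes GABA, differed by −0.39 over both litters and was not called.

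**Figure D4:**
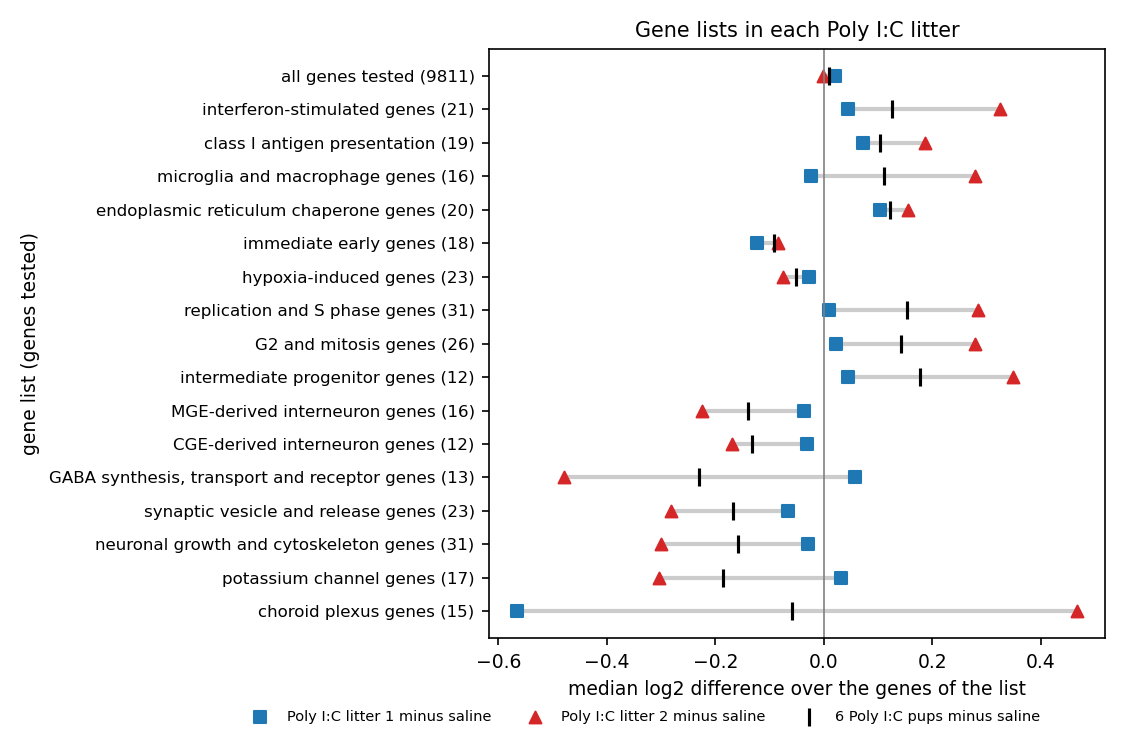
The median log2 difference from saline (x axis) is shown for each gene list (y axis, number of genes tested in brackets), with a blue square for Poly I:C litter 1, a red triangle for litter 2 and a black mark for the 6 pups. The squares and triangles lie close together for chaperone, immediate early and hypoxia genes and far apart for GABA, neuronal growth, replication and choroid plexus genes.

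The litters were therefore compared with each other. Against saline, 480 genes were called in litter 1 (4.89%, with 2.88% higher and 2.01% lower) and 1772 in litter 2 (18.1%), with 0 and 292 at a limma adjusted p of 0.05 (2.98% in litter 2, 56 higher and 236 lower, which are 0.571% and 2.41%). Both comparisons share the 6 saline pups. The litter 2 count was 915 without pup 2.2, and its 292 adjusted calls became 8 without 2.2, 6 without 2.3, 785 without 2.1, and 145, 171 and 160 without Saline 1.1, 2.1 and 1.3. The litter 1 count was 816 without pup 1.3, and 309 and 928 without Saline 1.1 and 1.3. Between the Poly I:C litters, 1489 genes were called, 15.2%, with 456 higher and 1033 lower in litter 2, and 2 passed the adjusted threshold (0.0204%). Without pup 2.2 these were 681 and 0, without 2.3 they were 908 and 1, and without 2.1 they were 1861 and 323. Between the saline litters, 235 genes were called, 2.4%, and 0 passed it. The litter difference cannot be told apart from the dam, the dissection or the handling of a litter.

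The 2 genes past the adjusted threshold are known from cilia or have an unnamed role. Wdr60, a subunit of the dynein that moves cargo inside cilia, was 0.344, 0.324 and 0.227 in litter 1 and 0.145, 0.121 and 0.133 in litter 2, against 0.237 to 0.313 in saline pups. Its log2 difference between litters was −1.15 ± 0.15 (limma adjusted p = 0.00336), against −0.03 between the saline litters. Fam227a was 0.387, 0.415 and 0.394 in litter 1 and 0.200, 0.201 and 0.177 in litter 2, against 0.287 to 0.449 in saline pups, a difference of −1.05 ± 0.16 (limma adjusted p = 0.0117). For both genes litter 2 was the group that stood apart, since litter 1 lay around the saline range.

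Next came Aqp4, the water channel of astrocyte end-feet, at 0.258 to 0.369 in litter 1, 0.0768 to 0.169 in litter 2 and 0.183 to 0.384 in saline pups, a difference of −1.36 ± 0.26 (limma adjusted p = 0.125). Higher in litter 2 were Mdk, the growth factor midkine, at 14.3 to 21.1 in litter 1, 26.5 to 33.8 in litter 2 and 18.4 to 25.7 in saline pups (0.74 ± 0.16), and Cdk1, the kinase that starts mitosis, at 1.66 to 1.84, 1.93 to 2.61 and 1.79 to 2.05 (0.43 ± 0.09). The histone gene Hist1h2bk differed by 0.97 ± 0.21, and it belongs to a family of near-identical copies. In Mdk and Cdk1 the litters lay on opposite sides of the saline median.

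Choroid plexus, the tissue that makes cerebrospinal fluid, adheres to the medial wall of the hippocampus and differed between the litters. Its 15 genes had a median of −0.57 in litter 1 and 0.47 in litter 2, where the litter 1 value rests on pup 1.3, since the scores of pups 1.1 and 1.2 (0.06 and 0.04) lay inside the saline range of −0.19 to 0.17, and 9 of the 15 were called higher in litter 2 than in litter 1, beside 4.65% of all genes, while none was called in the comparison of 6 with 6. The summed level of the 17 genes in the table ran from 49.7 to 180 in litter 1, from 226 to 286 in litter 2 and from 156 to 212 in saline pups, with Poly I:C 1.3 lowest, at a score of −1.54. Genes of endothelium and pericytes summed to 58.8 to 71.8 in litter 1, 75.8 to 98.9 in litter 2 and 66.0 to 90.0 in saline pups. No gene of either list was at the offset. Their part in the litter difference and in the interferon genes, which are lowest in the same pup 1.3, was not tested. Blood cell genes summed to 2648 to 4380 in Poly I:C and 2086 to 3608 in saline pups, and the median of 14 tested was 0.20 with 1 called, lower.

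Counts of the remaining lists are read beside 4.33% of all genes called higher and 5.49% lower. Of 13 one-carbon and serine synthesis genes, 4 were called higher and 1 lower. Against litter 2 alone 7 of these were higher and 1 lower, beside 6.27% and 11.8% of all genes, and against litter 1 alone none was called. Of 9 genes of catecholamine receptors and degrading enzymes 3 were lower, and of 9 glutamate receptor genes 2 were lower and 1 higher. Of 77 cytosolic ribosomal proteins none was called (median 0.04), of 77 subunits of oxidative phosphorylation 1 was lower (Cox6a1, −0.13) and of 69 mitochondrial ribosomal proteins 2 were higher. None of 21 NRF2 antioxidant genes and none of 17 transcription factors of cortical layers and hippocampus was called, nor any of 14 genes of striatal projection neurons or 23 of meninges and collagen. Thalamic genes had 1 of 13 higher, Lhx9 (0.48), and sterol synthesis genes 1 of 24 lower, Aacs (−0.25). Heat shock genes had 2 of 13 higher, Hspa8 (0.15) and Hspd1 (0.18), with 12 of the 13 differences above 0 and a median of 0.13. Higher too were 2 of 20 transfer RNA synthetases, Rars (0.16) and Farsb (0.14), and 3 of 17 p53 targets, Aen (0.14), Rps27l (0.25) and Gtse1 (0.23), with a median of 0.11 and 7 called higher in litter 2 alone, beside 6.27% of all genes. A missed threshold with 6 pups a group does not show that these genes were equal.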

How the data were processed

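RNA of 24 pups was sequenced as paired reads from stranded mRNA libraries, and 12 of the pups are compared here. The authors trimmed reads at phred 30 with a minimum length of 25, aligned them to rn6 with STAR 2.4.1d, quantified RefSeq 80 transcripts with Partek and deposited the TPM of each gene, to which 0.0001 had been added. These values sum to 70350.1 in every pup. Reads per pup were estimated from the steps between low values, of which 49.0 to 54.1% fell no more than 0.05 reads from a whole read, where evenly spread values would give 10%, so counts were not recovered and no count model was used. Gene spans came from GRCr8 and matched 86.7% of genes.

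The study's own test was not rerun, and log2 values were compared with limma 3.58.1 in R 4.3.3 (lmFit and eBayes) in 1 fit of all 24 pups, with group, or group and litter, as the factor, and Benjamini-Hochberg adjustment over 9811 genes. Exact two-sided permutation tests used 6 pups against 6. The scripts were tested on simulated data. Pups, not dams, are the replicates, so p-values measure the spread between pups. Litters were read from the sample names. Genes named are those without overlap that had the smallest p, up to 4 a list by p, the largest litter differences, and fixed genes of interferon, microglia and interneurons, and only part of them is printed. The comparison, gene lists and tests were chosen with earlier results of these data known. Alternatives covered the filter, scaling, pseudocount, pups, litters, variance trend, a replicate block and Eif2s3y as a covariate, and leaving out the 2 pups farthest from their groups was added after seeing the data. Tables of the study's own comparisons were not used here. Some genes are not reported here.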

Additional observations from a re-analysis of the deposited data

Results flagged for a closer look

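With 89 named genes in 2 groups, 178 sets of 6 values were checked for a pup far from the others, and 10 were found, while chance flags about 1 in 20 groups. Poly I:C 1.3 stood apart for Rexo2, at 2.80 against 2.14 to 2.32 in the other 5, for Cx3cr1, at 0.142 against 0.212 to 0.266, and for Cplx2, at 0.817 against 1.58 to 2.07. Poly I:C 2.2 stood apart for Sst, at 17.7 against 44.5 to 56.6, and for Syn2, at 0.0603 against 0.107 to 0.137. Saline 2.1 stood apart for Arc, at 1.00 against 0.651 to 0.711, for Kcnf1, at 4.58 against 2.97 to 3.43, and for Lhx2, at 3.57 against 5.84 to 6.84. Saline 2.2 was high for Nsmf, at 20.1 against 18.1 to 18.8, and Saline 1.2 low for Ifi27, at 1.60 against 2.07 to 2.37. The Poly I:C litters differed past the adjusted limma threshold for Wdr60, by −1.15 on the log2 scale, and for Fam227a, by −1.05, litter 2 minus litter 1.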

How the results depend on the processing

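Of 68 called genes with a value in the text, all 68 kept their direction in the 29 alternatives run and 32 were past the unadjusted limma p of 0.05 in each alternative that gave a value. Depth limits low genes most, and 93 of the genes tested had fewer than 10 estimated reads in at least 1 pup. In a fit of the litter means of all 4 groups, with 2 dams a group, 598 genes were called between Poly I:C and saline. Of these, 0 passed an adjusted p of 0.05, and 35.0% were higher, against 44.1% of the calls over 12 pups. The MAM and Low Protein litters entered that fit for their spread. The cause of the changes listed here was not tested.

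The 964 genes called between Poly I:C and saline pups became 515 with a mean above 1 in both groups, 1860 without Poly I:C litter 1, 454 without Poly I:C litter 2 and 533 without Saline litter 2, and ran from 668 to 1277 with 1 pup left out. The 0 adjusted calls became 5 with scaling by the median of ratios, 7 by the upper quartile, 2 with a pseudocount of 1 and 272 without Poly I:C litter 1, and ran from 0 to 1 with 1 pup left out (without Saline 2.2). The share of higher calls, 44.1%, ran from 33.1 to 56.9% with 1 pup left out, was 56.8% without Poly I:C litter 2 and 34.4% without litter 1. Against saline, the 480 genes of Poly I:C litter 1 became 834 without a filter and 244 with a mean above 1, and 309 to 928 with 1 pup left out, and its 0 adjusted calls became 1 without a filter and 0 to 2 with 1 pup left out. The 1772 genes of litter 2 became 936 with a mean above 1, and 915 to 2002 with 1 pup left out, and its 292 adjusted calls became 13 in a fit of the 12 pups alone and 6 to 785 with 1 pup left out. The 1489 genes that differed between the Poly I:C litters became 795 with a mean above 1 and 681 to 1861 with 1 pup left out, and the 2 adjusted calls became 0 with the 12 pups alone, with a mean above 1 and with a pseudocount of 1, 1 without a filter, 4 with the median of ratios, and 0 to 323 with 1 pup left out.

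These genes, none of them called, changed sign (log2 differences). Csf1r was −0.016 and Lhx6 0.040 without Poly I:C litter 2. Cx3cr1 was 0.065 without Poly I:C litter 1, 0.028 without Saline litter 1 and 0.053 without Poly I:C 1.3 and Saline 2.1 together, and −0.090 to 0.090 with 1 pup left out. Fos was −0.0010 with a pseudocount of 1, −0.042 without Poly I:C litter 1 and −0.14 without Saline litter 2, and −0.11 to 0.11 with 1 pup left out. Ifit2 was 0.22 without Poly I:C litter 1, 0.12 without Saline litter 1 and 0.038 without Poly I:C 1.3 and Saline 2.1, and −0.089 to 0.085 with 1 pup left out. Il6st was −0.00849 without Saline litter 2, and −0.014 to 0.072 with 1 pup left out. Socs3 was −0.031 without Poly I:C litter 2 and −0.11 without Saline litter 1, and −0.072 to 0.067 with 1 pup left out.

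With the pup number as a replicate block, 1167 genes were called, 0 of them at an adjusted p of 0.05. The numbers do not pair pups of different groups, since the deviations of pups with the same number correlated between −0.09 and 0.42, so the block is given for completeness only.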
